A study of Mus musculus with 4 samples.

Results

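Ribosome biogenesis genes encode the nucleolar machinery that transcribes, trims and modifies ribosomal RNA and packs it into ribosomal subunits. They were chosen by symbol: names beginning with *Nop*, *Utp*, *Nol* or *Rrp* and a digit, the RNA polymerase I subunits *Polr1a* to *Polr1e*, and 11 named factors (*Ncl*, *Npm1*, *Fbl*, *Dkc1*, *Nhp2*, *Gar1*, *Bop1*, *Pes1*, *Wdr12*, *Imp3* and *Imp4*). The rule uses symbols alone, although the set was proposed with earlier results of these data known, and 48 of the 11598 genes in the deposited table matched. By role they comprised 5 RNA polymerase I subunits, 3 proteins of the box C/D snoRNP core, 4 of the box H/ACA snoRNP core, 19 small-subunit processome proteins, 10 large-subunit assembly factors, the abundant nucleolar proteins *Ncl* and *Npm1*, and 4 other nucleolar factors. *Nol4l* matched by name alone and has no settled role in the pathway.

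The study asked how loss of the translation elongation factor eEF1G alters translation in early meiosis. Ribo-seq, which counts the mRNA fragments that a ribosome shields from nuclease (ribosome-protected fragments, RPFs), was carried out on leptotene and zygotene spermatocytes sorted by FACS from testes at 12 days postpartum (dpp). There were 2 Control libraries and 2 *Eef1g*-cKO libraries on a C57BL/6J background. *Eef1g*-cKO males carried a floxed *Eef1g* allele, made by CRISPR-Cas9, whose exons 2 to 7 are removed by *Stra8*-GFPCre. Control animals are labelled wild type and are called littermate controls in the methods, and whether they carried the floxed allele or the Cre is not given in the sources used here. *Stra8*-GFPCre becomes active in type A1 spermatogonia, so the deletion is directed to germ cells and precedes meiosis. The replicates are described as independent, but the number of animals behind each library is not given in the sources used here.

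Ribosome assembly begins in the nucleolus, where RNA polymerase I transcribes one long precursor that holds most of the ribosomal RNAs. Box C/D snoRNPs methylate it and box H/ACA snoRNPs convert uridines to pseudouridine, each guided by a small nucleolar RNA. The small-subunit processome folds and cuts the precursor for the 40S subunit, and a separate set of factors, among them the Pes1-Bop1-Wdr12 (PeBoW) complex, builds the 60S subunit. In the male germ line the pathway is busy in dividing spermatogonia, and *Utp14b*, an autosomal copy of the X-linked *Utp14a*, is required for spermatogonial differentiation.

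Library depth was uneven. Reads counted on genes numbered 2479504 and 1384282 for Control, against 223906 and 407979 in *Eef1g*-cKO. A single read on a gene of 1 kb was worth 0.403 and 0.722 FPKM (reads per kilobase of a gene per 1000000 counted reads) in Control, against 4.47 and 2.45 FPKM in *Eef1g*-cKO. *Eef1g* itself had 107 and 58 reads in Control, against 0 and 4 in *Eef1g*-cKO, a log2 fold change of −3.39 (adjusted p = 0.0731 by limma and 0.0078 by edgeR's quasi-likelihood test). Cell type markers also differed between the genotypes. The 16 spermatogonial markers, all in the table, summed to 1813 and 2179 FPKM in Control, against 313 and 316 in *Eef1g*-cKO, where 8 of them fell and *Upp1* and *Nanos2* had no read. The 20 leptotene/zygotene markers, which stand for the labelled cells and were all in the table, summed to 2586 and 2084 FPKM in Control, against 5912 and 5576 in *Eef1g*-cKO, and 10 of them rose. Sertoli markers (8 of 10 in the table) summed to 563 and 139 FPKM in Control, against 134 and 87.6 in *Eef1g*-cKO, where *Gata4* had no read and none of the 8 passed the adjusted p. The 6 pachytene markers in the table, of 11 listed, summed to 591 and 461 FPKM in Control, against 1708 and 1665 in *Eef1g*-cKO. Most of that sum was the testis histone *Hist1h1t*, the 1 of them that rose, and their median log2 fold change was −0.079. In such bulk libraries fewer cells of a type and fewer footprints per cell cannot be told apart, and the part of these markers in the results was not tested.

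Promoters of genes that fell by adjusted p are shown for the E-box CACGTG, a palindrome bound by Myc and Max, known activators of ribosome biogenesis genes. RefSeq promoter windows on GRCm38.p6, 250 bases before to 50 after the start site, were listed for 40 of the 48 genes, and for 5 of the 6 that fell (*Nol6*, at chr4:41114427-41124339, had none). *Utp14b* is added as a gene with the opposite sign of change. Its window also lies within *Acsl3*, a gene on the same strand with a log2 fold change of −0.97 (limma adjusted p = 0.0853). The letters shown are therefore not particular to *Utp14b*. The E-box is in capitals.

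Pes1 (chr11:3963725-3964024, plus strand): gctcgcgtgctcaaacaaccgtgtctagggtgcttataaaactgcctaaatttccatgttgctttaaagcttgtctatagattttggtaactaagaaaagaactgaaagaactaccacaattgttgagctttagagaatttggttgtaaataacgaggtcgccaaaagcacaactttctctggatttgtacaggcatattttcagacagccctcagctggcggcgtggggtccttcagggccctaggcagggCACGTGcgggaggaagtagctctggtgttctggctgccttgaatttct
Nop2 (chr6:125131633-125131932, plus strand): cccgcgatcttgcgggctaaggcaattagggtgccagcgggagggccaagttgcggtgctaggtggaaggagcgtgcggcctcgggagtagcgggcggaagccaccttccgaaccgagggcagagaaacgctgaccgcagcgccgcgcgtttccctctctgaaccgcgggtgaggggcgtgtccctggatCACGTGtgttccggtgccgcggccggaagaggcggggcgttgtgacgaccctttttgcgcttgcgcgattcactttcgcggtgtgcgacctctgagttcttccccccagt
Nhp2 (chr11:51619523-51619822, plus strand): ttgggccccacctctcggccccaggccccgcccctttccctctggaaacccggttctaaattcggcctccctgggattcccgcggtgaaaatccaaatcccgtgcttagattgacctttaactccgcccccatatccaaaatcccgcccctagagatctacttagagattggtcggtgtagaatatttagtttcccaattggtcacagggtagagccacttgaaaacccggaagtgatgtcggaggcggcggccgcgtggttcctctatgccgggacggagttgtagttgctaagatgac
Polr1b (chr2:129100746-129101045, plus strand): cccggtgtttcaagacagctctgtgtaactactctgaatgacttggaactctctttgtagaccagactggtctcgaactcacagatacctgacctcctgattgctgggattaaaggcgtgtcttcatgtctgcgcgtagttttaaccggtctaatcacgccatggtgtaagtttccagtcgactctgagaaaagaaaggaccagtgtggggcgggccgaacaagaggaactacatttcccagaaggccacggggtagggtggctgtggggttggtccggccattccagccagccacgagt
Nop14 (chr5:34660099-34660398, minus strand): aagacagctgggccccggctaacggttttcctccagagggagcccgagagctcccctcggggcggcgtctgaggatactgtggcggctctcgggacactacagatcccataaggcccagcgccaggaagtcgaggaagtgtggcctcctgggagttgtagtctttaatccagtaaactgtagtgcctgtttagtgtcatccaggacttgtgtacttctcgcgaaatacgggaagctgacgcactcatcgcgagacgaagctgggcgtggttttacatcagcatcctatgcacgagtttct
Utp14b (chr1:78658190-78658489, plus strand): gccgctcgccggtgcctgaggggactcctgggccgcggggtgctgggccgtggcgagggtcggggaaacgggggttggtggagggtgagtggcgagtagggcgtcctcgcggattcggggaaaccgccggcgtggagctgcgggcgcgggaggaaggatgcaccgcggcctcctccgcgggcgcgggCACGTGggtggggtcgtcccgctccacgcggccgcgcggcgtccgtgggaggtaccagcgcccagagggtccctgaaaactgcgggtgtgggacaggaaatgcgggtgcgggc

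The motif stood at +3 from the start site in *Pes1*, −60 in *Nop2* and −63 in *Utp14b*, and these letters were not in the windows of *Nhp2*, *Polr1b* and *Nop14*. Counted once for both strands, as it is its own reverse complement, it was present for 8 of the 40 genes (20%), beside 12.4% of the 9226 genes of the deposited table with a promoter entry and 8.09% of all 27025 genes. The other holders were *Imp4*, *Nol11*, *Rrp7a*, *Utp18* and *Utp20*, whose log2 fold changes ranged from −0.65 to 0.52 and none of which passed the adjusted p. The RefSeq start site behind the *Utp14b* window lies 615 bases inside the gene's annotated span, so −63 counts from that site and not from the gene's first base. A match is a description of the letters and not evidence of binding.

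Most of these genes had lower footprint values in *Eef1g*-cKO, but only a minority passed the threshold for a call. Of the 48 genes, 6 fell when called by an adjusted p under 0.05 with a log2 fold change beyond 1 in size, and 0 rose (limma, 10475 genes whose mean reached 1 FPKM, as all 48 did). These were *Pes1*, *Nhp2*, *Polr1b*, *Nol6*, *Nop14* and *Nop2*. The share of 12.5% stood beside 4.97% of all tested genes that fell and 2.87% that rose. By unadjusted p, 8 of the 48 were lower (16.7%, beside 16.3% of all genes), with *Bop1* and *Fbl* added, and 0 higher (beside 7.32%). The members' share was therefore above the background by adjusted p and close to it by unadjusted p. Other settings gave 7 lower genes in edgeR (beside 11.2%), 6 in DESeq2 (beside 5.34%), 5 with centred libraries (beside 3.66%), 7 at a mean of 5 FPKM or more (beside 8.14%) and 8 with the replicate number as a block (beside 7.85%). In edgeR and with centred libraries 1 gene rose, *Utp14a* (beside 8.75% and 4.97%). Without Control replicate 1, without Control replicate 2, or with a prior variance that follows no trend, 0 genes passed the adjusted p in limma, and 8 of 47, 5 of 47 and 8 of 48 were lower by unadjusted p (beside 9.26%, 7.06% and 17.3%). Without *Eef1g*-cKO replicate 1, 5 of the 48 fell (beside 10.5%), so the members' share was then no higher than that of all genes, and without *Eef1g*-cKO replicate 2 9 fell (beside 13.9%).

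**Figure D1:**
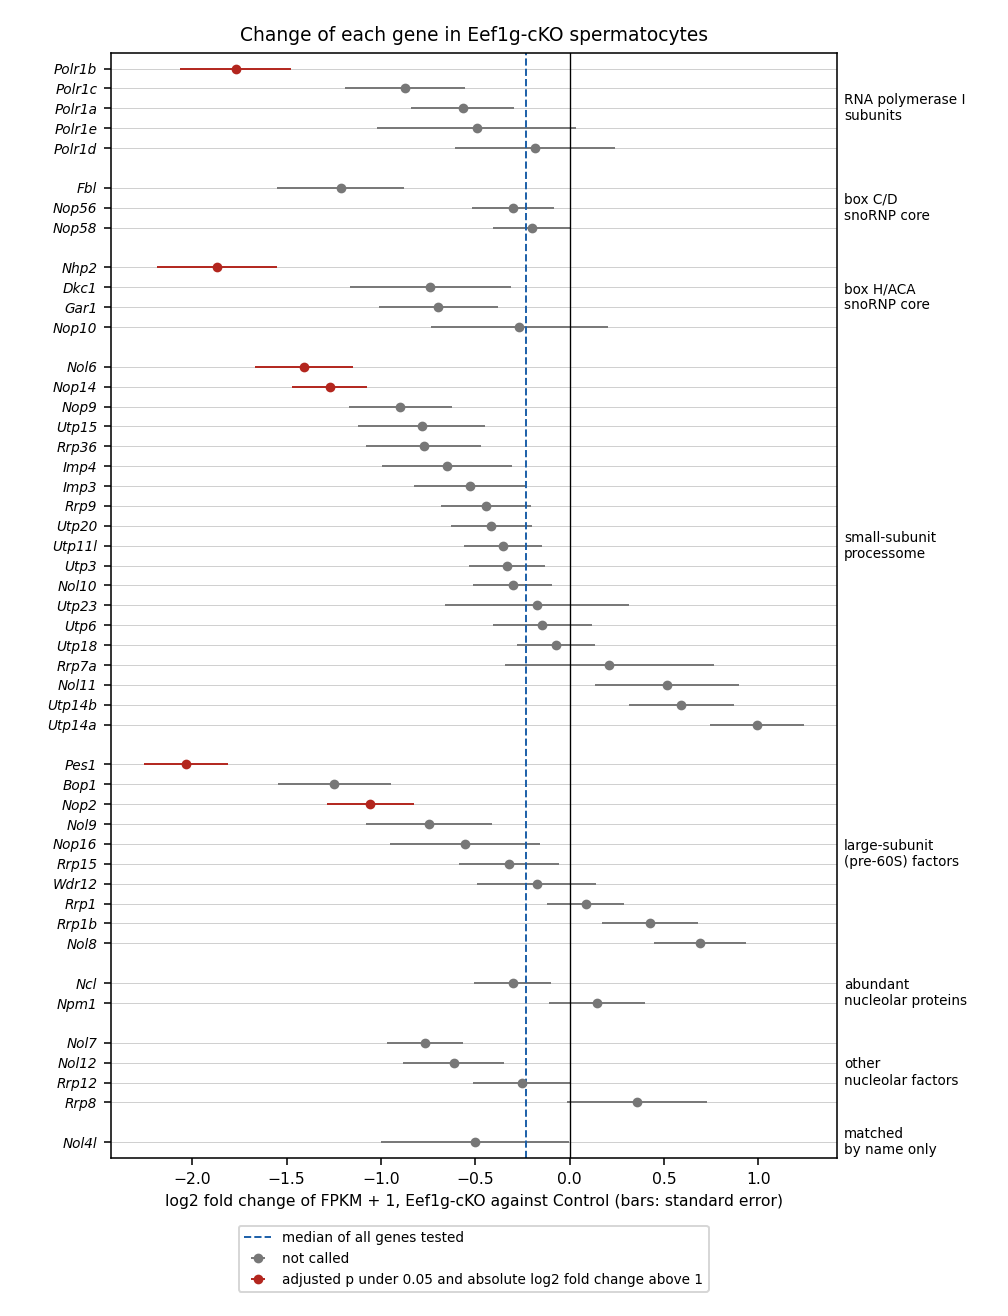
Log2 fold change of FPKM + 1 in *Eef1g*-cKO against Control for each of the 48 genes, grouped by role, with the limma standard error as bars and n = 2 libraries per genotype. Red points mark the 6 genes that fell, from *Pes1* at −2.03 to *Nop2* at −1.06. The dashed line is the median of all tested genes, −0.23.

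The median log2 fold change of the 48 genes was −0.43, against −0.23 for all 10475 tested genes and −0.08 for the 7080 with a mean of at least 5 FPKM. Negative values were found for 39 of the 48 (81.3%), beside 59.1% of all tested genes and 53.4% of those at 5 FPKM or more. Centring each library on its median moved the all-gene median by over 0.1, to −0.02, and then 33 of the 48 were negative with a median of −0.21. The members' median lay below the all-gene median by a difference of −0.20, and of −0.096 in DESeq2, −0.29 in edgeR and −0.35 at a mean of 5 FPKM or more. Both *Eef1g*-cKO libraries lay below both Control libraries for 28 genes (58.3%, beside 37.7% of all tested genes and 35.9% of those at 5 FPKM or more), and above both for 4, *Utp14a*, *Utp14b*, *Nol8* and *Rrp1b* (beside 24.6%). Only *Nol4l* (1 and 2 reads) and *Utp23* (2 and 3 reads) had 3 reads or fewer in each *Eef1g*-cKO library, and the median without them was −0.43.

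**Figure D2:**
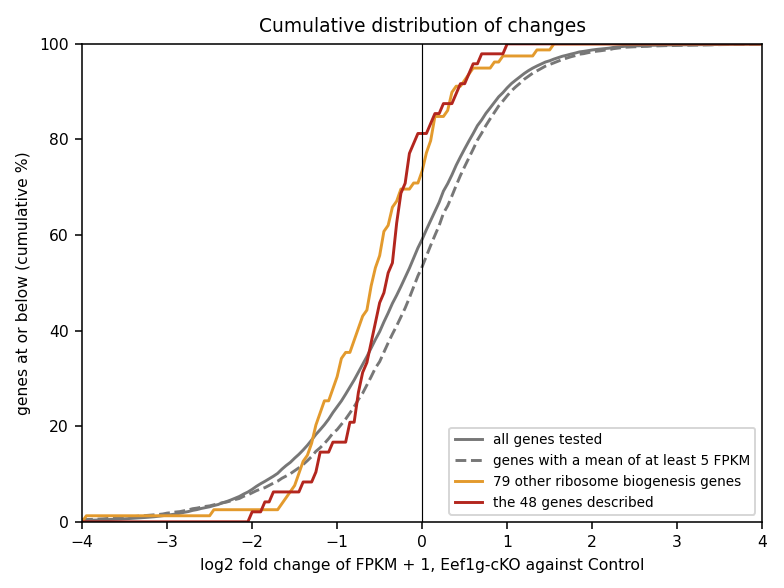
Cumulative share of genes (y axis, percent) at or below each log2 fold change of FPKM + 1 (x axis), for the 48 genes described, 79 other ribosome biogenesis genes and all genes tested. The curve of the 48 genes crosses 0 at 81.3%, against 59.1% for all tested genes. It runs from −2.03 to 0.99, and the reach of a curve depends on its number of genes.

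Differences between libraries of 1 genotype were smaller than those between genotypes. The median absolute log2 difference across the 48 genes was 0.298 for the Control pair and 0.242 for the *Eef1g*-cKO pair, against 0.470 to 0.622 for the 4 pairs across genotypes. Together the 48 genes took 10527 and 12174 of every 1000000 counted reads in Control, against 8160 and 8179 in *Eef1g*-cKO. The *Eef1g*-cKO mean was 0.720 of the Control mean, and without *Npm1* and *Ncl* it was 0.676. The exact two-sided permutation p was 0.333, the smallest that 2 against 2 libraries allow. The ratio was 0.524 for RNA polymerase I subunits, 0.545 for box H/ACA proteins, 0.618 for large-subunit factors, 0.746 for box C/D proteins, 0.747 for the small-subunit processome and 0.823 for *Ncl* and *Npm1* together.

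**Figure D3:**
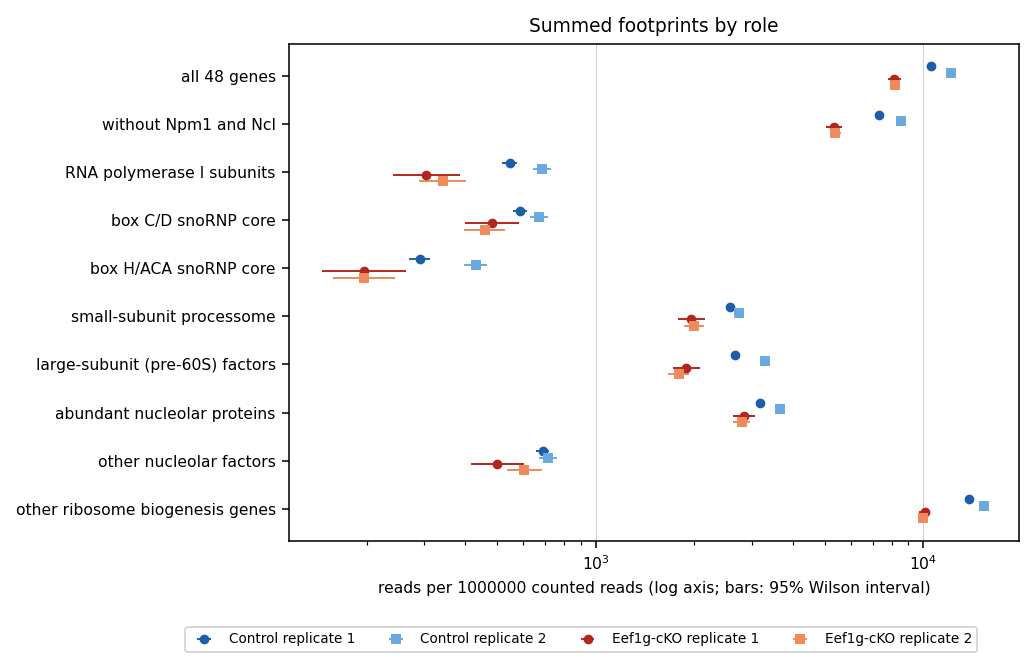
Reads per 1000000 counted reads (log axis) summed over all 48 genes, over each role but not *Nol4l* alone, and over 79 other ribosome biogenesis genes, one point per library with its 95% Wilson interval, which covers counting error only. Control libraries lie to the right of *Eef1g*-cKO libraries in every row. Of the rows shown, the intervals are widest for box H/ACA proteins, which had 44 and 80 reads in *Eef1g*-cKO.

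RNA polymerase I subunits were led by *Polr1b*, which encodes the second-largest catalytic subunit. It measured 40.5 and 57.6 FPKM in Control (401 and 319 reads), against 12.3 and 14.7 FPKM in *Eef1g*-cKO (11 and 24 reads). Both *Eef1g*-cKO libraries were far below both Control libraries, and the log2 fold change was −1.77 (standard error, SE, 0.29, adjusted p = 0.0350 by limma). *Polr1a*, the largest subunit and its partner in the active centre, measured 25.4 and 26.0 FPKM in Control, against 19.0 and 15.2 in *Eef1g*-cKO. Its groups did not overlap either, but the log2 fold change of −0.57 did not pass (adjusted p = 0.220 by limma). *Polr1c*, shared with RNA polymerase III and the most abundant of the 5, had 135 and 168 FPKM in Control, against 61.6 and 109 in *Eef1g*-cKO (log2 fold change −0.87, limma adjusted p = 0.134). *Polr1d*, also shared with RNA polymerase III, and *Polr1e* overlapped between genotypes, with log2 fold changes of −0.18 and −0.49. The value of *Polr1d* turned to 0.030 with centred libraries. *Polr1b* footprints were 1.59 and 2.22 times those of *Polr1a* per length in Control, against 0.647 and 0.965 times in *Eef1g*-cKO. The exact permutation p was 0.333, the smallest possible. These *Eef1g*-cKO ratios rest on 11 and 24 reads of *Polr1b* and 26 and 38 of *Polr1a*. In *Eef1g*-cKO replicate 2 the genes were near equal, so a changed order is not shown there. The partner ratios here and below were not among the planned comparisons.

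In the box H/ACA snoRNP, which forms pseudouridine, *Nhp2* was the 1 of the 4 proteins that fell (25.0%, beside 4.97% of all tested genes). This RNA-binding core protein measured 77.9 and 111 FPKM in Control (194 and 154 reads), against 31.1 and 19.5 FPKM in *Eef1g*-cKO (7 and 8 reads). The groups were widely separated, with a log2 fold change of −1.87 (SE 0.32, adjusted p = 0.0354 by limma). *Dkc1*, the pseudouridine synthase itself, had 23.6 and 39.9 FPKM in Control, against 12.7 and 25.4 in *Eef1g*-cKO (log2 fold change −0.74, limma adjusted p = 0.291), and its groups overlapped. *Gar1*, the most abundant of the 4, had 97.7 and 139 FPKM in Control, against 91.4 and 55.9 in *Eef1g*-cKO (log2 fold change −0.70, adjusted p = 0.201 by limma). *Nop10*, a small scaffold protein with 3 and 14 reads in *Eef1g*-cKO, had −0.27, which became 0.065 in edgeR and 0.0058 in DESeq2. The ratio of *Nhp2* to *Gar1* per length was 0.797 and 0.799 in Control, against 0.341 and 0.349 in *Eef1g*-cKO (exact permutation p = 0.333). As *Nhp2* is the gene of the 4 that fell, a lower ratio followed in part from that choice. The *Eef1g*-cKO ratios rest on 7 and 8 *Nhp2* reads. Against the other partners the *Eef1g*-cKO replicates disagreed. The ratio of *Nhp2* to *Dkc1* was 3.30 and 2.77 in Control, against 2.44 and 0.770 in *Eef1g*-cKO, and that of *Nhp2* to *Nop10* was 2.64 and 2.63, against 1.72 and 0.420.

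In the box C/D snoRNP, which methylates ribosomal RNA, none of the 3 proteins passed the adjusted p. *Fbl*, the methyltransferase fibrillarin, measured 119 and 153 FPKM in Control, against 42.4 and 78.2 in *Eef1g*-cKO. All *Eef1g*-cKO values were below Control, with a log2 fold change of −1.21 (SE 0.34). The adjusted p was 0.0768 by limma, 0.0203 by edgeR's quasi-likelihood test and 0.0909 by DESeq2. Its coding sequence shared 91.8% of its 28-base words with other genes, chiefly the pseudogene *Gm5812*, so its reads may be split in ways the table does not show. The ratio of the scaffold proteins *Nop56* and *Nop58* overlapped between genotypes, 0.600 and 0.719 in Control, against 0.589 and 0.639 in *Eef1g*-cKO (exact p = 0.667). *Nop58*, the most abundant of the 3, had 144 and 148 FPKM in Control, against 140 and 115 in *Eef1g*-cKO, a log2 fold change of −0.20. It was 0.012 with centred libraries and −0.76 after removal of the GC trend (limma adjusted p = 0.0759).

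Among the 19 small-subunit processome proteins 2 fell, *Nol6* and *Nop14* (10.5%, beside 4.97% of all tested genes), and 0 rose (beside 2.87%). By unadjusted p the number lower was also 2, a share under the 16.3% of all genes. The median log2 fold change was −0.35, against −0.23 for all tested genes. *Nol6*, the partner of *Rrp7a* within the processome, measured 51.5 and 70.6 FPKM in Control (573 and 438 reads), against 22.9 and 21.3 FPKM in *Eef1g*-cKO (23 and 39 reads). Its log2 fold change was −1.41 (SE 0.26, adjusted p = 0.0388 by limma), and the *Eef1g*-cKO libraries were nearly equal. *Nop14*, a 40S assembly factor, had 118 and 125 FPKM in Control, against 51.2 and 48.1 in *Eef1g*-cKO. Replicates of each genotype were close, and its log2 fold change of −1.27 (SE 0.20, adjusted p = 0.0328 by limma) had one of the smallest errors in the set. Neither gene shared any coding 28-base word with another gene. *Utp11l*, the most abundant of the class over all libraries, had 96.9 and 114 FPKM in Control, against 79.7 and 84.9 in *Eef1g*-cKO (log2 fold change −0.35, adjusted p = 0.292 by limma).

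*Utp14a* and *Utp14b* encode near-equivalent processome proteins from the X chromosome and from chromosome 1, and both had higher values in *Eef1g*-cKO. *Utp14a* measured 18.1 and 18.1 FPKM in Control (109 and 61 reads), against 34.9 and 39.3 in *Eef1g*-cKO (19 and 39 reads). The groups were clearly apart, with a log2 fold change of 0.99 (SE 0.25, adjusted p = 0.0628 by limma). With centred libraries it was 1.21 (limma adjusted p = 0.0432), in edgeR 1.12 (adjusted p = 0.0206) and in DESeq2 1.11 (adjusted p = 0.0992). The call of *Utp14a* therefore depends on the scaling and on the test. After removal of the GC trend its log2 fold change was 0.62 (limma adjusted p = 0.184). *Utp14b* measured 27.7 and 22.3 FPKM in Control, against 32.5 and 44.3 in *Eef1g*-cKO (log2 fold change 0.59, limma adjusted p = 0.212). The ratio of *Utp14a* to *Utp14b* was 0.654 and 0.812 in Control, against 1.07 and 0.887 in *Eef1g*-cKO (exact p = 0.333). Of their coding 28-base words, 1.76% and 1.77% occurred in other genes. *Utp14b* starts at the same base as *Acsl3*, a fatty acid CoA ligase gene on the same strand (chr1:78657825-78667601 within chr1:78657825-78707743), so reads on shared exons may be uncertain. *Acsl3* itself had 29.8 and 39.9 FPKM in Control, against 15.8 and 18.6 in *Eef1g*-cKO, the opposite direction to *Utp14b*. The other 14 processome genes ranged from −0.90 (*Nop9*) to 0.52 (*Nol11*), and none passed the adjusted p.

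Of the 10 large-subunit factors, 2 fell, *Pes1* and *Nop2* (beside 4.97% of all tested genes), and 0 rose (beside 2.87%). By unadjusted p, 3 were lower, with *Bop1* added (beside 16.3% of all genes), and 0 higher (beside 7.32%). The median log2 fold change was −0.44, against −0.23 for all tested genes. *Pes1*, a member of the PeBoW complex, measured 401 and 531 FPKM in Control (2893 and 2138 reads), against 115 and 109 FPKM in *Eef1g*-cKO (75 and 129 reads). Mean abundance was 466 ± 91.8 FPKM in Control, against 112 ± 4.56 in *Eef1g*-cKO (SD, n = 2 each). The log2 fold change was −2.03 (SE 0.22, adjusted p = 0.0225 by limma). Its rank among the 48 genes by mean FPKM passed from 1 in Control to 6 in *Eef1g*-cKO. *Bop1*, its direct partner, measured 40.9 and 65.4 FPKM in Control, against 21.6 and 20.8 in *Eef1g*-cKO, without overlap. Its log2 fold change was −1.25 (adjusted p = 0.0593 by limma, 0.0105 by edgeR's quasi-likelihood test and 0.0577 by DESeq2). *Wdr12*, which completes the complex, had 13.5 and 18.2 FPKM in Control, against 14.6 and 13.1 in *Eef1g*-cKO, an overlapping pattern with a log2 fold change of −0.17 (0.040 with centred libraries).

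Relative to *Wdr12* per length, *Pes1* stood at 29.7 and 29.2 in Control, against 7.91 and 8.31 in *Eef1g*-cKO, and *Bop1* at 3.03 and 3.59 against 1.49 and 1.59. The exact p was 0.333 for each, and these pairs were chosen after their values were seen. *Pes1* shared 55.7% of its coding 28-base words with *Gm5910* and other genes and *Wdr12* 54.9%, chiefly with *Gm4879*, whereas *Bop1* shared none. *Nop2*, a methyltransferase of the 60S RNA, measured 78.0 and 97.8 FPKM in Control, against 39.2 and 43.9 in *Eef1g*-cKO. Its groups did not overlap, but the log2 fold change of −1.06 (SE 0.23, adjusted p = 0.0497 by limma) lay at the threshold and was −0.84 with centred libraries (adjusted p = 0.0720). *Nol8*, a nucleolar RNA-binding protein, went the other way, with 81.1 and 59.0 FPKM in Control, against 105 and 121 in *Eef1g*-cKO. All *Eef1g*-cKO values were above Control, although the log2 fold change of 0.69 did not pass (adjusted p = 0.122 by limma), and it was 0.15 after removal of the GC trend. *Rrp1b* had 0.43 with the same separation, and the other 4 ranged from −0.75 (*Nol9*) to 0.09 (*Rrp1*).

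Neither abundant nucleolar protein passed the test. *Ncl*, nucleolin, measured 360 and 424 FPKM in Control, against 317 and 316 in *Eef1g*-cKO (log2 fold change −0.30, limma adjusted p = 0.355), and after removal of the GC trend its log2 fold change was −0.89 (adjusted p = 0.0609). The deposited length of *Ncl* is 8257 bases, against 2121 coding bases, so FPKM understates its footprint density. Per kilobase of coding sequence and 1000000 counted reads it stood at 1525 ± 177 in Control, against 1232 ± 3.06 in *Eef1g*-cKO (SD, n = 2 each), the highest of the 48 genes in both genotypes, with *Pes1* at 768 ± 151 and 185 ± 7.52. *Npm1*, nucleophosmin, measured 124 and 84.9 FPKM in Control, against 122 and 106 in *Eef1g*-cKO, a log2 fold change of 0.15 that turned to −0.43 after removal of the GC trend. Its Control libraries enclosed both *Eef1g*-cKO libraries, and 87.9% of its coding 28-base words occurred in other genes, chiefly *Gm9118*.

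Of the other nucleolar factors, *Nol7* came nearest to a call, with 92.0 and 93.3 FPKM in Control, against 56.7 and 51.4 in *Eef1g*-cKO (log2 fold change −0.77, limma adjusted p = 0.0700). *Rrp12*, an export factor of both subunits and the most abundant of the 4, had 95.7 and 104 FPKM in Control, against 68.2 and 102 in *Eef1g*-cKO (log2 fold change −0.25, limma adjusted p = 0.531). *Nol12* had −0.61 and *Rrp8* 0.36, and neither passed. *Nol4l* was near the detection limit, with 1.42 and 1.44 FPKM in Control, against 0.685 and 0.752 in *Eef1g*-cKO, a log2 fold change of −0.50 (adjusted p = 0.527 by limma).

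**Figure D4:**
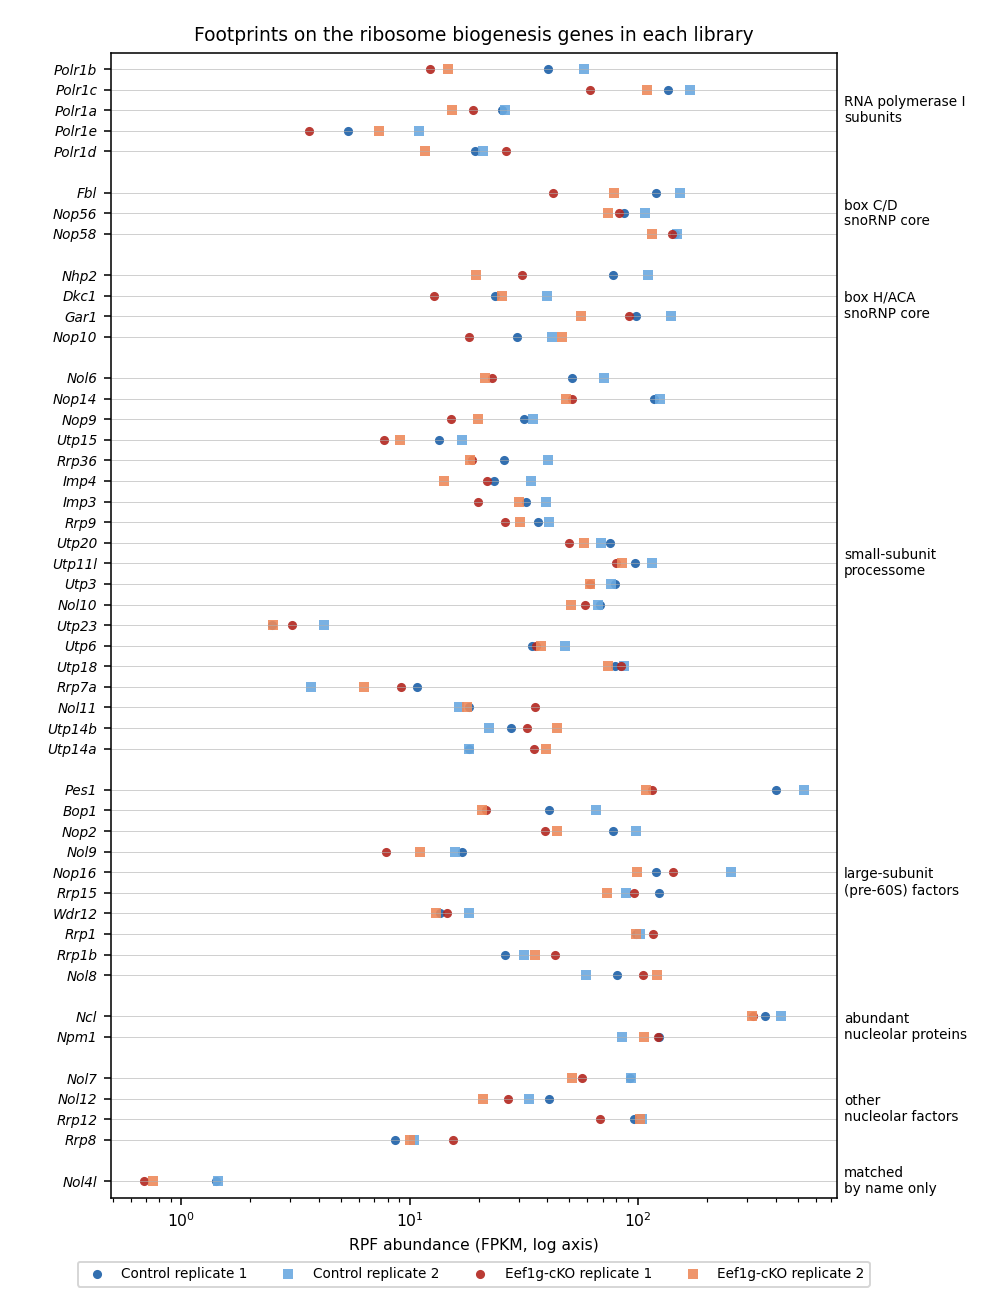
FPKM (log axis) of the 48 genes in each library, grouped by role and ordered by log2 fold change within a role. *Pes1* and *Ncl* are the most abundant in Control, at 466 and 392 FPKM on average, and *Nol4l* is the least, and for *Pes1* the red *Eef1g*-cKO points lie far to the left of the blue Control points.

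Coding composition moved with the response. The share of G or C at the last base of codons (GC3) correlated with the log2 fold change across the 48 genes at a Spearman rho of −0.417, and across 10112 tested genes at −0.301, where genes share libraries and are not independent. Median GC3 was 63.7% in the 6 genes that fell, 48.2% in the 4 with both *Eef1g*-cKO libraries above Control, 58.5% in all 48 and 60.2% in all tested genes. After the GC3 trend was removed from each library, the same 6 genes fell and 0 rose (beside 6.01% of 10112 genes that fell). The log2 fold change moved by over 1.5 times or turned sign for 29 of the 48, among them *Gar1* at −1.11, *Dkc1* at −1.19, *Wdr12* at −0.57 and *Utp14b* at 0.21. The part of base composition in the values was not tested further.

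Other genes of the pathway, 79 that the symbols do not match, included 15 that fell (19.0%, beside 4.97% of all tested genes). Only 1 rose (beside 2.87%). By unadjusted p, 21 were lower (26.6%, beside 16.3%) and 2 higher (beside 7.32%). Their median log2 fold change was −0.60, against −0.23 for all tested genes. *Wdr55*, a WD-repeat protein of ribosomal RNA processing, had 114 and 95 reads in Control, against 0 and 3 in *Eef1g*-cKO (adjusted p = 0.0483 by limma). *Cd3eap*, an RNA polymerase I subunit outside the symbol range, had 61 and 46 reads in Control, against 1 and 1 in *Eef1g*-cKO (adjusted p = 0.0388 by limma). No fold is given for these counts. *Emg1*, a methyltransferase of the 40S RNA, fell from 126 and 189 FPKM in Control to 51.3 and 44.6 (log2 fold change −1.67, limma adjusted p = 0.0328). *Ltv1*, a late 40S assembly factor, was the one that rose, from 77.6 and 85.8 FPKM to 210 and 201 (log2 fold change 1.32, limma adjusted p = 0.0307). *Ubtf*, the RNA polymerase I activator UBF, fell by 1.44 on the log2 scale (adjusted p = 0.0489 by limma), and it was named after its value was seen. It had 13 and 17 reads in *Eef1g*-cKO. Its log2 fold change was −1.23 with centred libraries (limma adjusted p = 0.0608) and −1.06 with the GC trend removed (limma adjusted p = 0.0695), so the call was lost in both.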

How the data were processed

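Ribo-seq libraries of sorted leptotene/zygotene spermatocytes were grouped by the sample labels into Control and *Eef1g*-cKO, with 2 each. Per the methods, the authors trimmed adapters, filtered by quality, aligned to the genome and ran RiboMiner with default parameters. The submitters' processing notes name cutadapt, Bowtie, STAR, mm10 and hg38 without roles, and the counter and annotation are not given in the sources used here. The deposited FPKM values were computed by the authors from reads counted on genes. The deposited normalized counts are a signal, the reads of a gene divided by a size factor, and 100% of values were whole multiples of 1 step per library (tolerance 0.001), which recovered the reads. No listed gene had fewer than 10 reads in all. The authors' own log2 fold changes with errors, test score and p-values were deposited in the same table and were not used, nor was their mean signal. A single non-coding gene, *Rnu11*, took 5.33% to 11.8% of reads.

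limma 3.58.1 (R 4.3.3) was fitted to log2(FPKM + 1), the prior variance following a trend, in genes whose mean reached 1 FPKM, with Benjamini-Hochberg adjustment over all of them. Fold changes on this scale understate those of low genes. edgeR 4.0.16 (quasi-likelihood, TMM) and DESeq2 1.42.0 on recovered reads, other pseudocounts, filters and scalings, and leaving out each library were alternatives, and removal of the GC3 trend and of members with few reads (3 or under) in each *Eef1g*-cKO library were chosen after seeing the data. Models were run on simulated reads of a fixed spread, only to see whether set shifts were recovered by unadjusted p. False calls were not counted there. A gene with 0 reads can still have 3 (95% confidence), for counting error only, since PCR copies are not independent. Coordinates, promoters and coding sequences came from RefSeq GRCm38.p6 and GENCODE, which need not be the authors' annotation, and all 48 symbols matched. Named in full were the genes that passed, the most abundant of each role, *Ncl*, *Npm1*, *Fbl*, *Dkc1*, *Polr1a*, *Polr1b*, *Utp14a*, *Utp14b*, and the 3 highest and lowest changes at a mean of at least 5 FPKM. Of other pathway genes, up to 3 per direction were named. The members and gene lists were chosen with earlier results of these data known. Values were summarised in Python 3.11.15 with pandas 2.3.3. Macrophage and blood markers had no gene in the table. Pachytene (6 of 11), spermatid (3 of 9), Leydig (3 of 6) and peritubular (3 of 5) markers had 1, 0, 0 and 0 that rose and 0 that fell by adjusted p.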

Additional observations from a re-analysis of the deposited data

How the results depend on the processing

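Of the 48 genes, the number that fell by adjusted p was 1 with a pseudocount of 0.1 FPKM (*Pes1*), where 47 of all 10475 genes fell. With a prior variance without a trend it was 0, as it was for all 10475 genes (8 by unadjusted p, beside 17.3% of all genes). Without Control replicate 1 and without Control replicate 2 it was 0 (8 and 5 by unadjusted p, beside 9.26% and 7.06% of all genes), without *Eef1g*-cKO replicate 1 it was 5 (10.5% of all genes fell), and without *Eef1g*-cKO replicate 2 it was 9 (13.9% of all genes). Leaving 1 library in a genotype assumes that it varies like the other genotype. Leaving out a Control library took the adjusted calls from all tested genes and not from the members alone. The number that fell was 5 with no filter on low values (beside 373 of all 11598 genes) and 5 with centred libraries (beside 3.66%). It was 6 with a pseudocount of 5 FPKM (beside 706 of 10475 genes), in DESeq2 (beside 5.34%) and with the GC trend removed (beside 6.01%). With a mean of at least 5 FPKM it was 7 (all of the 6 and *Bop1*, beside 8.14%). It was also 7 in edgeR (5 of the 6, with *Bop1* and *Fbl* added), where 11.2% of all genes fell. The number that rose was 1 with centred libraries and in edgeR, *Utp14a* each time. By unadjusted p it was also 1 in DESeq2 and with a pseudocount of 0.1 FPKM, and 0 to 1 when 1 library was left out. The number lower by unadjusted p was 5 to 11 when 1 library was left out. Centring changed the split of all calls from 521 lower and 301 higher to 383 and 521. Replicate numbers did not pair the libraries (correlation of deviations −0.008). With the replicate block, 8 fell, adding *Bop1* and *Fbl* (1 box C/D gene), and the libraries share only a number.

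Counts per role followed the same settings, beside the same all-gene shares. With a pseudocount of 0.1 FPKM they were 0 for RNA polymerase I, box H/ACA and the small-subunit processome and 1 for large-subunit factors, and with an untrended prior 0 for these 4. Large-subunit factors had 1 with no filter and with centred libraries. edgeR called 1 box C/D gene. Leaving out 1 library gave 0 to 2 for RNA polymerase I, 0 to 1 for box C/D and box H/ACA, 0 to 2 for the processome and 0 to 3 for large-subunit factors. Of 79 other pathway genes, 0 fell with a pseudocount of 0.1 FPKM (beside 47 of all 10475 genes) or an untrended prior (beside 0 of 10475). The number was 6 with no filter (beside 373 of 11598) and 9 with centred libraries (beside 3.66%). Without 1 library their median log2 fold change ranged from −0.63 to −0.56. The number of them that rose was 0 with a pseudocount of 0.1 FPKM, an untrended prior or the GC trend removed, 3 with centred libraries, 2 in edgeR and DESeq2, and 0 to 2 without 1 library. By unadjusted p, 12 to 29 were lower and 1 to 3 higher without 1 library, and 1 was higher with a pseudocount of 5 FPKM or the GC trend removed and 4 with centred libraries. The summed ratio was 0.676 without *Npm1* and *Ncl* and 0.691 without *Rnu11* in the total.

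Signs turned for genes near 0. With centred libraries *Nop58* was 0.012, *Utp6* 0.070, *Wdr12* 0.040, *Utp23* 0.041, *Polr1d* 0.030 and *Utp18* 0.14. *Npm1* was −0.43 with the GC trend removed, and *Nop10* 0.065 in edgeR and 0.0058 in DESeq2. When 1 library was left out, *Rrp12* ranged from −0.54 to 0.029, *Npm1* from −0.12 to 0.41, *Rrp1* from −0.035 to 0.21, *Utp6* from −0.38 to 0.090, *Wdr12* from −0.38 to 0.029, *Utp23* from −0.46 to 0.12, *Polr1d* from −0.75 to 0.38, *Rrp7a* from −0.45 to 0.87, *Utp18* from −0.16 to 0.014 and *Nop10* from −0.92 to 0.39. Of the gene values under alternatives, 607 kept their direction and side of the threshold, 11 passed it anew, 28 lost it and 20 turned sign. The cause was not tested. With 7 to 24 reads behind *Nhp2* and *Polr1b* in *Eef1g*-cKO, counting error there is large, and several decreases rest on few reads.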
